A study of Mus musculus with 2 samples.

Results

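A set of 10 genes of the melanocortin, endothelin and cyclic AMP (cAMP) signalling routes of pigment cells were followed by RNA sequencing in 2 mouse melanoma cultures. The 10 genes, Pomc, Mc1r, Mgrn1, Ednrb, Gnaq, Gna11, Prkaca, Creb1, Crem and Pde4d, were taken by symbol from the 23284 gene symbols listed in each library, and all 10 were found. The B16 line comes from a melanoma of a C57BL/6 mouse. B16/BL6 was derived from B16 and is known for its invasiveness. The samples are labelled with the strain C57BL/6 and carried no treatment in the labels. B16 was grown in DMEM and B16/BL6 in RPMI, both with fetal bovine serum and penicillin and streptomycin, so effects of line and of medium cannot be told apart. There was 1 library of each line, made from polyadenylated RNA with a stranded kit. With no replicates, the values carry no error, the lines could not be tested against each other, and p-values are absent. Values are FPKM, fragments per kilobase of transcript scaled to library size. Being per length, they can be set side by side between genes. The comparison is limited because the treatment of reads that match several genes is not known.

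In pigment cells, peptides cut from the Pomc precursor bind the melanocortin receptor Mc1r, which acts through a stimulatory G protein and adenylyl cyclase to raise cAMP. The cAMP releases the catalytic subunits of protein kinase A (PKA), which phosphorylate the transcription factor Creb1, and phosphodiesterases end the signal by breaking cAMP down. Endothelins act on the receptor Ednrb, which signals through the G proteins Gnaq and Gna11 to phospholipase C, and this route is needed for the growth and migration of melanocyte precursors. In mice, gain of function in Gnaq or Gna11 darkens the skin, and loss of the Ednrb receptor removes pigment cells from the coat.

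The short regulatory sequences before 3 of the genes are shown because they hold the matches to the motifs bound by the transcription factors at the end of these routes, and because the 3 genes stand at different levels in the cells. Each is the run of 250 bases just before the transcription start in RefSeq, build GRCm38.p6 (the assembly that mm10 names), written 5′ to 3′ on the gene's own strand. None overlapped an exon in GENCODE M21. Capitals mark the cAMP response element core TGACG or its reverse complement CGTCA, and the E-box CATGTG or its reverse complement CACATG. The melanocyte factor Mitf binds this form of E-box, and other forms were not searched or marked. The Mc1r window is chr8:123406832-123407081 on the plus strand, the Prkaca window chr8:83972728-83972977 on the plus strand and the Ednrb window chr14:103843702-103843951 on the minus strand. The Ednrb window lies inside the RefSeq span of the gene, which holds a start further upstream.
Mc1r: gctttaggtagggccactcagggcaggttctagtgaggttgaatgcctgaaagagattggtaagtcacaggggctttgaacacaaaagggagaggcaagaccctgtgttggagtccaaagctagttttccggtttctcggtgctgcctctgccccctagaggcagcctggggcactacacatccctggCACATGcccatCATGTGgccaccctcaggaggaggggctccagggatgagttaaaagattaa
Prkaca: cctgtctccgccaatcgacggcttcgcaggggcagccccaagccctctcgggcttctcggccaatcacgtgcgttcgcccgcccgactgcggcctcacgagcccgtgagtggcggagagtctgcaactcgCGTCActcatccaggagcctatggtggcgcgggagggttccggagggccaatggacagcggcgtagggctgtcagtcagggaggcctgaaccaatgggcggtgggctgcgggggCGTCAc
Ednrb: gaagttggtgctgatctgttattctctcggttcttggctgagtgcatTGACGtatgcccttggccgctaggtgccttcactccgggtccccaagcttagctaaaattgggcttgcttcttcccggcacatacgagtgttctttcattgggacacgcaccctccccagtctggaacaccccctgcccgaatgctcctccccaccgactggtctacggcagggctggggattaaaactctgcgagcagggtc

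Mc1r, the more abundant of the receptor genes, held 2 CATGTG E-boxes, beginning 62 and 51 bases before the start and on opposite strands. Prkaca held 2 copies of the cAMP response element core, beginning 120 and 6 bases before the start, and Ednrb held 1, beginning 203 bases before it. RefSeq windows were matched for 9 of the 10 genes, 10 windows in all, since Prkaca has 2. The gene without a window was Crem, so its promoters were not searched. Matches on both strands were counted. The core TGACG was found in 2 of the 10 windows, and in 17.8% of the 32851 windows of this length over all genes. The complete palindrome TGACGTCA, which contains the core, was found in 0 of the 10 windows and in 1.55% of all windows. The E-box CATGTG, which overlaps neither of the others and was added after the values were seen, was found in 2 of the 10 windows (Mc1r and Pde4d) and in 12.3% of all windows. A match is a description of these letters and not a measured site.

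The libraries carried markers of the pigment cell type. All 9 melanocyte markers were between 10.6 and 6160 FPKM, and their sum was 12391 FPKM for B16 and 18913 FPKM for B16/BL6. Among them, the tyrosinase gene Tyr was at 10.6 FPKM for B16 and 164 FPKM for B16/BL6. Of 6 fibroblast markers, 1 reached 1 FPKM (Col1a2, at 5.32 FPKM in B16/BL6). The immune markers had 1 of 6 at that level (Cd68), the endothelial markers 0 of 5 and the epithelial markers 0 of 6. In B16, 10413 genes were at 1 FPKM or more, and in B16/BL6 10367. Depth is not recorded, but the most frequent ratio among 379 genes at very low values was 0.906, which corresponds to a B16/BL6 depth 1.10 times that of B16 if values were scaled to each library's own fragments.

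Of the 10 genes, 9 reached the minimum used for expression, 1 FPKM in either library, and 0 of them differed by 2-fold between the lines in either direction. A difference here is the B16/BL6 value minus the B16 value, each as log2(FPKM + 1). In cultured cells measured in bulk, fewer cells that express a gene and less RNA per cell cannot be told apart. Over all 10709 genes that reached it, B16/BL6 was higher by 2-fold or more for 354 (3.31%) and lower for 338 (3.16%), 6.46% in all. When each library was rescaled to a sum of 1000000 (the TPM scale), 11257 genes reached a value of 1. Of these, 369 were higher and 583 lower. The median difference of the 9 genes was -0.20, beside 0.01 for all genes, with 3 above 0 and 6 below. On the TPM scale these medians were -0.37 and -0.16, with 1 gene above 0 and 8 below. With chromosome medians removed, the median of the 9 genes was 0.039, with 5 above 0 and 4 below, and with a minimum of 5 FPKM, which 7 genes passed, it was -0.022. Against a background of 6.46%, a count of 0 among 9 genes is not a result about these genes.

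**Figure D1:**
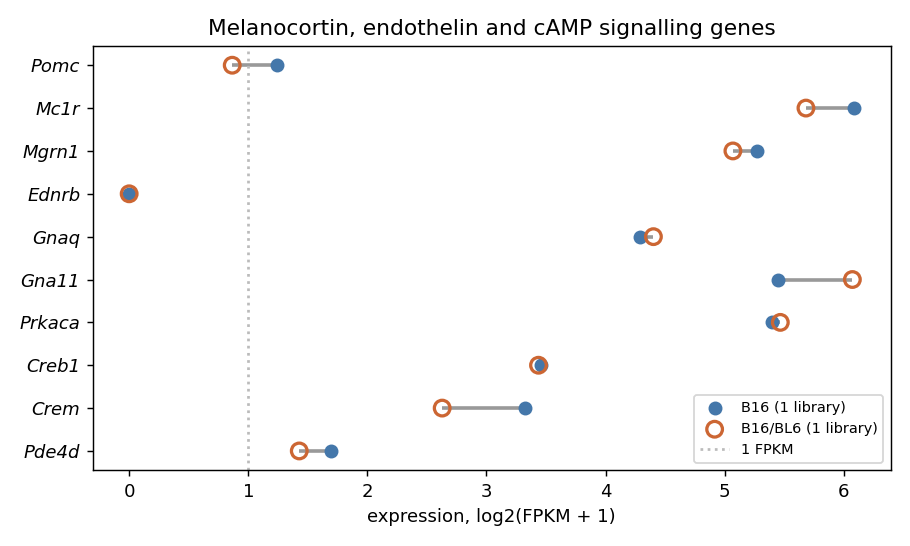
Expression of the 10 genes in the 2 libraries, as log2(FPKM + 1) on the horizontal axis, with filled points for B16, open circles for B16/BL6 and a dotted line at 1 FPKM. Crem and Gna11 have the longest bars, Creb1 and Prkaca the shortest among expressed genes, and Ednrb is at 0 in both libraries.

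The order of the levels was nearly the same in both lines. In B16 it ran from Mc1r through Gna11, Prkaca, Mgrn1, Gnaq, Creb1, Crem, Pde4d and Pomc to Ednrb, and in B16/BL6 only Mc1r and Gna11 changed places. With 1 library per line, neighbours in this order cannot be said to differ beyond their spread.

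The ligand precursor was scarce. Pomc (chromosome 12, 3954945 to 3960643), which encodes the precursor of the melanocyte-stimulating hormones, was at 1.36 FPKM for B16 and 0.822 FPKM for B16/BL6. It passed the minimum through B16 alone, and how many fragments lie behind values this low is unknown. Its difference was -0.37, and -0.54 with the median of each chromosome removed. The genes of the convertases that cut the precursor, Pcsk1 and Pcsk2, were listed at 0 in both libraries, as was the agouti gene a, whose product antagonises Mc1r. Later processing enzymes were expressed and lower in B16/BL6. Cpe, which trims basic residues from prohormone fragments, was at 389 FPKM for B16 and 133 FPKM for B16/BL6, a difference of -1.55. Pam, which amidates peptide hormones, was at 15.0 and 5.96 FPKM, a difference of -1.20.

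The melanocortin receptor was well expressed in both lines. Mc1r (chromosome 8, 123407082 to 123410744) was at 67.1 FPKM for B16 and 50.4 FPKM for B16/BL6, above 94.0% and 91.5% of all listed symbols. Its difference of -0.41 was equalled or exceeded in size by 31.2% of the expressed genes, so it is within the common range of differences between these libraries. The related receptor genes Mc2r, Mc3r, Mc4r and Mc5r were listed at 0 in both libraries, and so were the receptor accessory genes Mrap and Mrap2. Mc1r was the single melanocortin receptor gene with a value above 0.

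Mgrn1 (chromosome 16, 4886100 to 4938296) encodes a ubiquitin ligase whose loss darkens the coat of mice and which dampens Mc1r signalling. It was at 37.5 FPKM for B16 and 32.6 FPKM for B16/BL6, a difference of -0.20 that 59.2% of expressed genes equalled or exceeded. The ratio of Mc1r to Mgrn1 within a library, which no library scaling can alter, was 1.79 in B16 and 1.55 in B16/BL6. Attractin, another gene of the agouti and Mgrn1 coat colour pathway, stood still closer: Atrn was at 13.02 and 12.51 FPKM. Of the 16 genes of melanocortin ligands, processing and receptors, 6 passed the minimum, 10 were listed at 0 in both libraries, and 2 (Cpe and Pam) were at least 2-fold lower, beside 3.16% of all expressed genes. The list's median was -0.39.

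Mc1r and Mgrn1 each overlap a gene on the other strand, and whether counting used strand is not stated in the sources at hand. Exons of Mgrn1 overlap those of Gm16861, which was at 4.51 FPKM for B16 and 3.25 FPKM for B16/BL6. Exons of Mc1r overlap those of Gm38092, which is not among the gene symbols listed in the libraries. Of the 50-base windows of the longest Mc1r transcript, 18.6% occur in transcripts of other genes, the largest share of them in Gm38092. Reads from such stretches may be assigned or dropped, so the Mc1r level is uncertain to that extent.

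The endothelin receptor was listed at 0. Ednrb (chromosome 14, 103814615 to 103844508) was at 0 FPKM in both libraries, and no ratio is given. A value of 0 can be a failed estimate in such files, and abundant genes can be close to 0 here. Gapdh, a glycolytic gene of every cell, was at 0.531 FPKM for B16 and 0.561 FPKM for B16/BL6, and 82.5% of its 50-base windows occur in other annotated genes, among them Gm7336. Ppia, another gene of every cell, was at 1.03 and 0.155 FPKM with a share of 38.8%. For Ednrb that share was 0.39%, and the source of its value of 0 was not tested. The other endothelin receptor gene, Ednra, was listed at 0 for B16 and stood at 0.311 FPKM for B16/BL6, under the minimum.

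No endothelin gene had a value above 0, since Edn1, Edn2 and Edn3 were all listed at 0 in both libraries. The endothelin-converting enzyme genes, whose products cut the inactive precursor, were the expressed part of this list. Ece1 was at 0.177 FPKM for B16 and 5.22 FPKM for B16/BL6, a difference of 2.40 that 1.01% of expressed genes equalled or exceeded. Ece1 passed the minimum through B16/BL6 alone, and with a pseudocount of 5 its difference was 0.98, within 2-fold. Ece2 was at 26.0 and 25.1 FPKM. Of the 8 endothelin genes, 2 passed the minimum, 1 of them at least 2-fold higher (3.31% of all expressed genes were) and 0 lower.

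The genes of the G proteins that carry the endothelin signal were expressed, while the receptor gene Ednrb was listed at 0. Gna11 (chromosome 10, 81528724 to 81545162) was at 42.7 FPKM for B16 and 66.3 FPKM for B16/BL6, which gives a ratio of 1.55 and a difference of 0.62, the highest of the 9 expressed genes. A difference of this size or more was found in 16.03% of expressed genes. The genes of chromosome 10 were shifted as a whole, with a median of 0.41 over 528 expressed genes, and with each chromosome's median removed the Gna11 difference was 0.21. Gnaq (chromosome 19, 16132684 to 16388520) was at 18.6 and 20.1 FPKM, a difference of 0.11, which was -0.05 on the TPM scale.

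The ratio of Gna11 to Gnaq was therefore 2.30 in B16 and 3.29 in B16/BL6. The remaining members of the Gq class were close to absent, with Gna14 at 0 and 0.0258 FPKM and Gna15 at 0.0517 and 0.0468 FPKM. Gna11 thus made up 69.6% of the summed FPKM of the class in B16 and 76.6% in B16/BL6. Because Gnaq and Gna11 are close paralogs, their coding sequences were compared. Both are 1077 bases long without the stop codon and 80.5% identical, and the longest stretch they share is the following 38 bases, which begin at coding base 718 of both. It is shown because it sets how much a read can match both genes.
Gnaq and Gna11: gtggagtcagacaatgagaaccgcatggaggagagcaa

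A read longer than this stretch meets at least 1 difference between the coding sequences. Over whole transcripts, 0% of the 50-base windows of Gna11 and 0.18% of those of Gnaq occurred in any other annotated gene. The corresponding longest shared coding stretch was 34 bases for Prkaca and Prkacb, 32 for Pde4d and Pde4b, 20 for Creb1 and Atf1 and 15 for Creb1 and Crem.

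Among the other G protein subunits, the stimulatory alpha subunit Gnas, which couples Mc1r to adenylyl cyclase, was the most abundant at 994 FPKM for B16 and 1005 FPKM for B16/BL6. The beta subunit Gnb4 was at 31.9 and 8.84 FPKM, a difference of -1.74, while the beta subunit Gnb1 was at 283 and 405 FPKM. Of 26 listed G protein genes, 19 passed the minimum, 0 were at least 2-fold higher and 1 lower (Gnb4), beside 3.31% and 3.16% of all expressed genes. The median was 0.12, or -0.05 on the TPM scale (-0.16 for all genes). Downstream of Gq, Plcb3, a phospholipase C that makes inositol trisphosphate, was at 24.1 and 10.7 FPKM, a difference of -1.10. Itpr3, a receptor for that messenger on the endoplasmic reticulum, was at 2.43 and 0.271 FPKM. These were the 2 of 11 expressed Gq effector genes at least 2-fold lower, beside 3.16% of all expressed genes, and 0 were higher. Both calls were lost with a pseudocount of 5. The list's median of -0.19 changed sign with the minimum, being 0.01 with none and 0.06 at 5 FPKM.

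**Figure D2:**
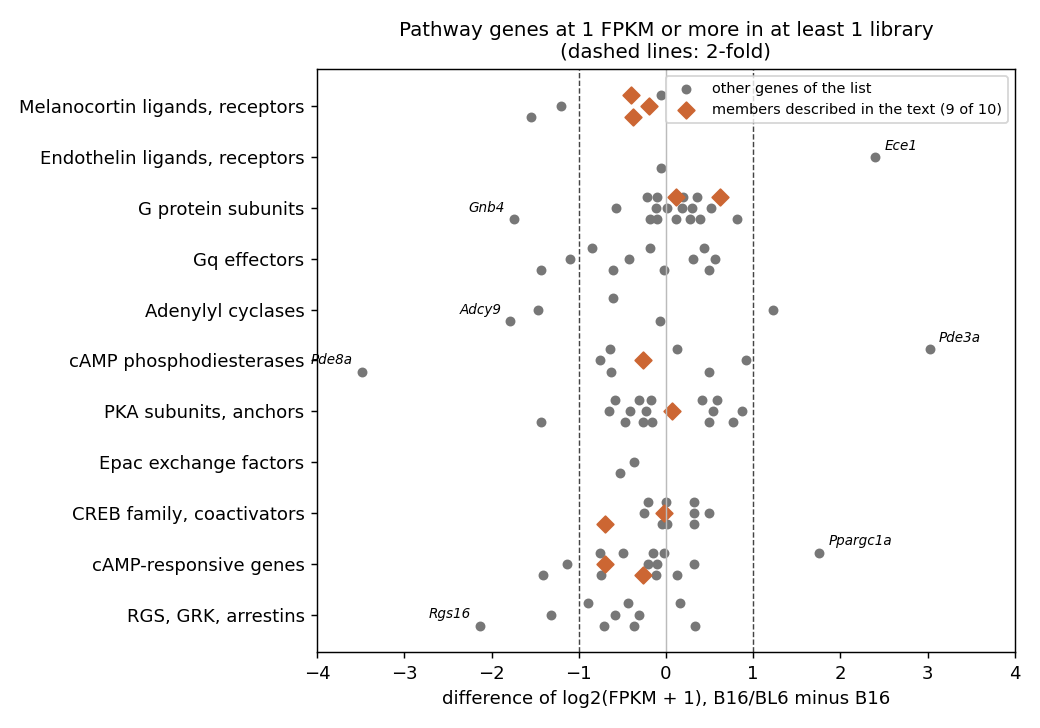
Difference of log2(FPKM + 1), B16/BL6 minus B16, of each expressed gene of the 11 pathway lists, with diamonds for the genes of the main set and dashed lines at 2-fold. The diamonds lie between -0.70 and 0.62, while Pde8a, Rgs16, Pde3a and Ece1 are among the genes beyond the dashed lines.

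Adenylyl cyclases, the enzymes that make cAMP under Mc1r, differed in their mixture of isoforms. Adcy7 was at 25.9 FPKM for B16 and 8.72 FPKM for B16/BL6, a difference of -1.47. Adcy9 was at 2.64 and 0.0579 FPKM, a difference of -1.78, and Adcy2 was at 0.656 and 2.89 FPKM, a difference of 1.23. Adcy3, named after its values were seen, was at 16.9 and 16.1 FPKM. Adcy7 thus held 44.6% of the summed cyclase FPKM for B16 and 24.6% for B16/BL6, while Adcy3 held 29.3% and 45.5%. The sum over the 10 cyclase genes was 57.9 FPKM for B16 and 35.4 FPKM for B16/BL6. Of 5 expressed cyclases, 1 was at least 2-fold higher and 2 lower, beside 3.31% and 3.16% of all expressed genes. The median was -0.60, and -0.07 with no minimum. Adcy2 passed the minimum through B16/BL6 alone and Adcy9 through B16 alone, and both calls were lost with a pseudocount of 5.

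Among the genes of PKA, Prkaca had nearly the same level in both libraries, and other subunits differed more without reaching 2-fold. Prkaca (chromosome 8, 83972978 to 83996444), the main catalytic subunit, was at 41.0 FPKM for B16 and 43.3 FPKM for B16/BL6. Its difference was 0.07, and -0.09 on the TPM scale. Its paralog Prkacb was at 27.5 and 39.1 FPKM, so the ratio of Prkaca to Prkacb was 1.495 in B16 and 1.11 in B16/BL6. Regulatory subunits hold the catalytic ones inactive until cAMP binds. Prkar1a, the most abundant, was at 189 and 168 FPKM, Prkar2a at 42.4 and 27.9 FPKM and Prkar2b at 21.2 and 39.7 FPKM.

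Summed over subunit genes, the ratio of catalytic to regulatory FPKM was 0.271 in B16 and 0.348 in B16/BL6. Prkar2b made up 8.37% of the regulatory sum for B16 and 16.8% for B16/BL6. The anchoring protein gene Akap12, whose product ties PKA to membranes, was at 7.99 and 2.34 FPKM, a difference of -1.43. It was the 1 gene of 17 expressed PKA subunit and anchor genes at least 2-fold lower, and 0 were higher, beside 3.16% and 3.31% of all expressed genes. The list's median was -0.18, or -0.35 on the TPM scale (-0.16 for all genes) and -0.08 with chromosome medians removed. The Epac genes Rapgef3 (19.6 and 15.0 FPKM) and Rapgef4 (23.5 and 16.01 FPKM), which encode cAMP-bound exchange factors that act apart from PKA, were both within 2-fold.

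The transcription factor at the end of the route had nearly the same level in both libraries. Creb1 (chromosome 1, 64532794 to 64604548) was at 10.0 FPKM for B16 and 9.83 FPKM for B16/BL6, a difference of -0.02 (0.04 with chromosome medians removed) that 94.9% of expressed genes equalled or exceeded. Its close relative Atf1 was at 21.5 FPKM in both. Crem (chromosome 18, 3266354 to 3337773), which gives rise to activators and, from an internal promoter, to the cAMP-induced repressor ICER, was at 9.02 FPKM for B16 and 5.18 FPKM for B16/BL6. Its difference of -0.70 was the lowest of the 9 expressed genes, and 12.96% of expressed genes had one as large or larger. A single value per gene cannot separate the activator forms from the repressor.

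The genes of chromosome 18 had a median of -0.29 over 269 expressed genes, and with each chromosome's median removed the Crem difference was -0.40. Crem overlaps Gm6225 on the other strand, which was at 0.0607 and 0.110 FPKM, far below Crem. The ratio of Crem to Creb1 was 0.902 in B16 and 0.527 in B16/BL6. The coactivators of this family were within 2-fold. Of these, Crtc1 was at 5.45 and 8.11 FPKM (a difference of 0.50), Crebbp at 4.96 and 6.45 FPKM (0.32) and Ep300 at 15.1 and 19.1 FPKM (0.32). Sik1, a kinase that holds the Crtc coactivators in the cytoplasm, was at 4.02 and 5.27 FPKM. All 11 genes of the list passed the minimum, and 0 reached 2-fold either way, beside 6.46% of all expressed genes. The median was -0.0003.

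Genes known to respond to cAMP through Creb1 held members past 2-fold in both directions. Of 15 expressed genes of this list, 1 was at least 2-fold higher and 2 lower, beside 3.31% and 3.16% of all expressed genes. With chromosome medians removed the counts were 1 and 1, beside 321 and 329 of 10642 genes. With a pseudocount of 5 they were 0 and 1, beside 151 and 118 of 10709. The median was -0.20, and 12 were below 0, beside 49.4% of all expressed genes. Ppargc1a, a coactivator of mitochondrial genes, was at 0.825 FPKM for B16 and 5.18 FPKM for B16/BL6, a difference of 1.76. It passed the minimum through B16/BL6 alone, and with a pseudocount of 5 its difference was 0.80, within 2-fold. The nuclear receptor gene Nr4a3 was at 23.7 and 8.28 FPKM, a difference of -1.41, and the repressor gene Nfil3 was at 8.68 and 3.40 FPKM, a difference of -1.14. Mitf, the melanocyte factor that the route induces, was at 97.1 and 90.7 FPKM, and Cited1 at 128 and 126 FPKM. Several of these genes also respond to serum and stress signals.

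Phosphodiesterases, which break down cAMP, included Pde4d within 2-fold and 2 genes with wide differences. Pde4d (chromosome 13, 108654177 to 109955969), a cAMP-specific phosphodiesterase with many promoters, was at 2.24 FPKM for B16 and 1.69 FPKM for B16/BL6. Its difference was -0.27, beside a median of -0.32 over 376 expressed genes of chromosome 13, and it was 0.06 with chromosome medians removed. Within its subfamily, Pde4a was at 4.85 and 2.47 FPKM, Pde4b at 3.79 and 4.24 FPKM, and Pde4c at 0.0303 and 0 FPKM. Pde4d held 20.5% of the subfamily's FPKM in B16 and 20.1% in B16/BL6, so its share was almost the same in both.

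Pde8a and Pde3a were each close to 0 in 1 of the libraries, so the size of their differences rests on the pseudocount. Pde8a, a cAMP-specific enzyme of high affinity, was at 10.9 FPKM for B16 and 0.0663 FPKM for B16/BL6, a difference of -3.49 that 0.48% of expressed genes equalled or exceeded. Pde3a, an enzyme inhibited by cGMP, was at 0.136 and 8.27 FPKM, a difference of 3.03 that 0.64% equalled or exceeded. With a pseudocount of 5 these differences were -1.65 for Pde8a and 1.37 for Pde3a, and Rgs16 (-1.54), Cpe (-1.52) and Gnb4 (-1.41) then exceeded Pde3a in size. Pde11a, the most abundant gene of the list in both libraries, was at 23.6 and 14.7 FPKM. Of the summed phosphodiesterase FPKM, Pde8a held 18.9% for B16 and 0.14% for B16/BL6, and Pde3a 0.23% and 17.3%. The sums, 57.9 and 47.9 FPKM, differed less than these 2 genes did. Of 9 expressed genes, 1 was at least 2-fold higher and 1 lower, beside 3.31% and 3.16% of all expressed genes. On the TPM scale 2 were higher and 2 lower, beside 369 and 583 of 11257 genes. These are not counts of the same 9 genes. The lower ones included Pde1b, at 0.561 FPKM for B16 and 0 for B16/BL6, which passed the minimum on that scale through B16 alone.

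**Figure D3:**
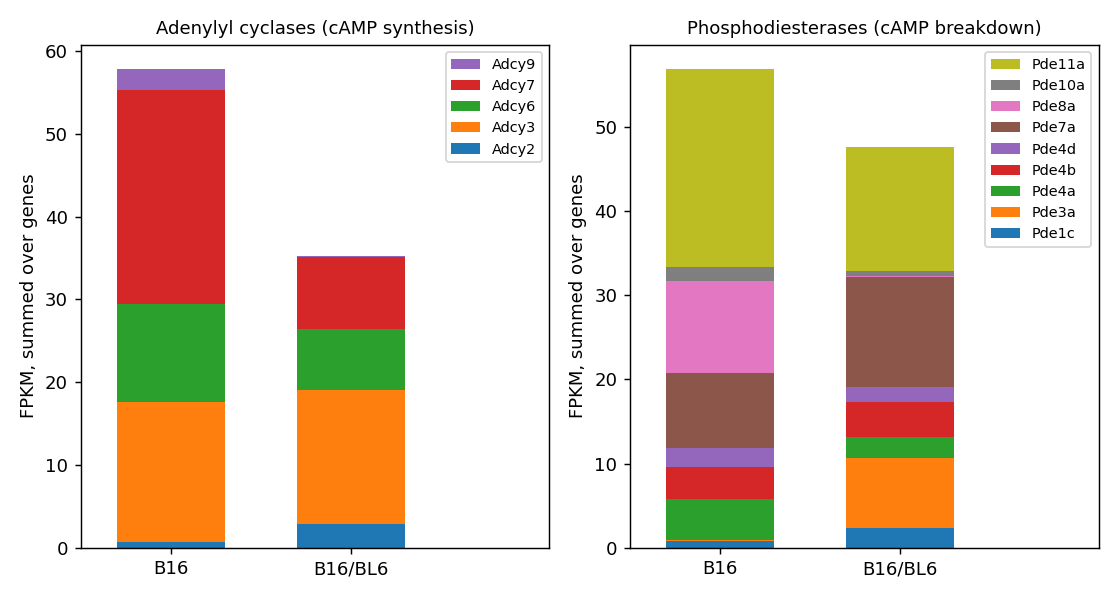
Summed FPKM of the adenylyl cyclase genes and of the cAMP phosphodiesterase genes that reached 1 FPKM in either library, stacked by gene for B16 and B16/BL6 (1 library each, no error bars). The Adcy7 segment shrinks from 25.9 to 8.72 FPKM, Pde8a is visible in B16 only, and Pde3a forms a clear segment in B16/BL6 only.

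Among genes whose products switch such receptors off, Rgs16, which speeds the return of Gi and Gq proteins to their inactive state, was at 22.0 FPKM for B16 and 4.24 FPKM for B16/BL6, a difference of -2.13. Rgs14 was at 2.36 and 0.344 FPKM, a difference of -1.32. The beta-arrestin gene Arrb1, whose product uncouples receptors from G proteins, was at 9.45 and 4.61 FPKM, a difference of -0.90. Of 10 expressed genes of the list, 0 were at least 2-fold higher and 2 lower, beside 3.31% and 3.16% of all expressed genes. On the TPM scale 4 were lower, beside 583 of 11257 genes. These 4 were not all among the same 10 genes. They included Rgs2, at 0.776 and 0.0586 FPKM, which passed the minimum on that scale through B16 alone. With a pseudocount of 5 the count of lower genes was 1, beside 118 of 10709. The median was -0.51, and 8 of the 10 were below 0, beside 49.4% of all expressed genes.

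Over all 11 lists, 103 different genes were expressed. Of these, B16/BL6 was higher by 2-fold or more for 4 (3.88%, beside 3.31% of all expressed genes) and lower for 13 (12.6%, beside 3.16%). The lists were chosen with earlier results of these data known, so these shares are a description and not a test. All 4 higher genes passed the minimum through B16/BL6 alone, and 4 of the 13 lower ones (Pde8a, Adcy9, Itpr3 and Rgs14) through B16 alone. These 8 were thus included only through the library in which they were higher. All 17 were outside the main set, whose 9 expressed genes included 0. The median of the 103 genes was -0.17, beside 0.01 for all genes, and -0.35 on the TPM scale, beside -0.16. Of the 17, Cpe, Gnb4, Adcy7, Pde3a, Pde8a, Rgs16 and Nr4a3 kept the call under every setting tried that considered them. The other 10 lost it with a pseudocount of 5, which damps differences of genes at low FPKM.

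**Figure D4:**
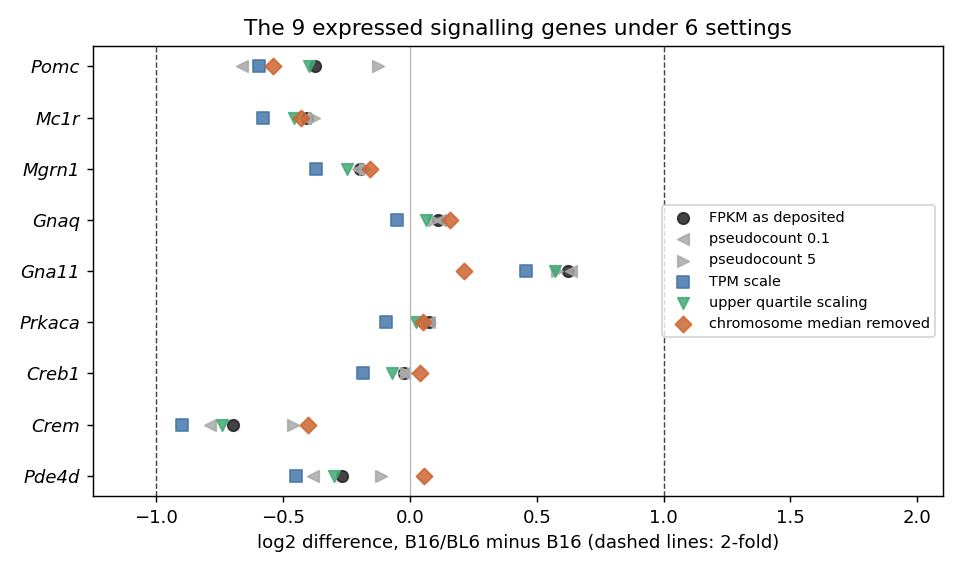
Log2 difference, B16/BL6 minus B16, of the 9 expressed genes under 6 settings (symbols), with dashed lines at 2-fold. Each symbol of each gene lies inside the dashed lines, and the diamonds for chromosome medians removed move Gna11 from 0.62 to 0.21 and Crem from -0.70 to -0.40.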

How the data were processed

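RNA of 1 culture of each line was sequenced. Each deposited file holds FPKM, as named in its header by the authors, 1 value per gene symbol. Per the submitters' processing notes, the build was mm10 and the tools were Cufflinks 2.2.1, TopHat2 2.0.13, SAMtools 0.1.19 and Bowtie2 2.2.3, with no settings. The annotation, library scaling, use of strand and treatment of multi-mapped reads are not stated in these sources. Absolute depth is unknown.

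Count tests need counts and were not used. Differences are on the log2(FPKM + 1) scale, pseudocount 1, for genes that reach 1 FPKM in either library, and calls are at 2-fold. This scale understates differences of low genes. The fixed naming rule covered the 10 genes, and from each pathway list up to 4 other expressed genes with the largest differences, the most abundant gene and paralogs. Not every gene it covered is described above. Those left out include Gng10, Itpr1, Pde1c and Pkig, which were higher in B16/BL6. Gnao1, Prkcd, Trio, Adcy6, Akap1, Dusp1, Rgs12 and Grk6, which were lower, were also left out. All of these were within 2-fold. Adcy3, Edn1, Edn2, Edn3, Pcsk1, Pcsk2, Mrap, Mrap2, agouti, Mitf, Prkar2a, Gapdh, Ppia, Adm, Calcrl, Ramp2, Ramp3, Vipr2, Ptgir and the overlapping genes fall outside this rule and were named with their values known. The same holds for Pde1b, Rgs2 and the single marker genes given above. The members and lists were chosen with earlier results of these data known. Lists came from textbook knowledge, and some genes are in several.

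Positions and promoter windows came from RefSeq GRCm38.p6, transcripts and exons from GENCODE M21. Shared windows of 50 bases were sought in all annotated transcripts on both strands, using the longest coding transcript of each gene. Chromosomes were matched for 10642 of the 10709 expressed genes. Alternatives were pseudocounts of 0.1 and 5, the TPM scale, upper-quartile scaling, median centring, no minimum and a minimum of 5 FPKM. Removal of chromosome medians was added after the data were seen. Python 3.11.15 with pandas 2.3.3 was used. The calls were tested on simulated differences much wider than 2-fold, in genes well above the minimum. Genes near either limit were not tested in this way.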

Additional observations from a re-analysis of the deposited data

How the results depend on the processing

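The 9 expressed genes had 0 calls in either direction under all 8 alternatives. Over all genes, a pseudocount of 5 gave the fewest calls, 151 higher and 118 lower of 10709. A pseudocount of 0.1 gave the most, 492 and 511. A count of 0 among 9 is therefore not a result about these genes. The median difference of the 9 genes, -0.20, was -0.37 on the TPM scale, where that of all genes was -0.16. It was -0.022 with a minimum of 5 FPKM (7 genes) and 0.039 with chromosome medians removed. Gnaq and Prkaca turned from above to below 0 on the TPM scale, and Creb1 and Pde4d from below to above 0 with chromosome medians removed. For the 103 pathway genes, a pseudocount of 5 left 1 gene higher and 6 lower, beside 151 and 118 of all 10709 expressed genes. Their median of -0.17 was -0.35 on the TPM scale, where 106 genes were considered and the median of all genes was -0.16. The larger pseudocount shrinks every difference by construction. No paired analysis was possible because there is 1 library per line. With no replicates and an unknown number of fragments, values near 1 FPKM, such as Pomc and Pde4d, have no stated precision.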

Other observations

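Receptors other than Mc1r that raise cAMP through Gnas had low values. In a list of such receptors put together after the values were seen, 19 were listed, 2 passed the minimum and 10 were at 0 in both libraries. Vipr2, a receptor for vasoactive intestinal peptide, was at 0.599 FPKM for B16 and 2.38 FPKM for B16/BL6, a difference of 1.08. Ptgir, the prostacyclin receptor gene, was at 1.16 and 0.184 FPKM, a difference of -0.87. Vipr2 passed the minimum through B16/BL6 alone and Ptgir through B16 alone.

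Adm, which encodes adrenomedullin, a peptide that raises cAMP through the receptor Calcrl with a Ramp partner, was listed at 0 for B16 and stood at 35.3 FPKM for B16/BL6. Calcrl was at 0.260 and 0.0725 FPKM, Ramp2 at 8.32 and 10.6 FPKM and Ramp3 at 0.358 and 1.46 FPKM. These genes too were put together after the values were seen, Adm passed the minimum through B16/BL6 alone, and its 0 for B16 can be a failed estimate.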
